A study of Homo sapiens with 8 samples.

Results

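U8 and U13 are small nucleolar RNAs (snoRNAs) of the box C/D class, encoded in human cells by SNORD118 and SNORD13. They were taken here from the lists of RNA regions recovered with FLAG-tagged NOP2/NSUN1, an RNA cytosine methyltransferase of the nucleolus. Every listed peak annotated as SNORD118, as U8 (the entry of the U8 family among the repetitive elements) or as SNORD13 was taken, whatever reference the reads had been aligned to. This gave 10 of 538 peaks, 5 of 251 for the WT protein and 5 of 287 for the C459A mutant. They lie on the same 5 references in both lists, which are the SNORD118 transcript and gene locus, the U8 family entry, and the SNORD13 transcript and gene locus.

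The miCLIP experiment used HEK293T cells, a human embryonic kidney line, lysed 40 h after transfection with a plasmid that expressed the tagged enzyme. All cells still carried their own NOP2, and no UV crosslinking was applied to either group. The groups differed in the construct. The WT enzyme releases its RNA after methylation, whereas in C459A the cysteine needed for release is replaced by alanine, so that a methylated RNA stays covalently attached. Each construct had 2 IP libraries from biological duplicates and 2 size-matched input (SMInput) libraries, taken from the same region of the membrane without immunoprecipitation, 8 libraries in all. A mock IP recovered too little RNA for a library and was not sequenced, so enrichment is relative to SMInput alone. By RT-qPCR beside a mock IP, the paper reported box C/D snoRNA binding with both proteins. It identified no cross-linked sites on snoRNAs. From the miCLIP reads along box C/D snoRNAs, U8 among them, it described the stretches bound by WT and by C459A as similar.

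The U8 and U13 snoRNAs belong to a small set of box C/D snoRNAs that are known to be transcribed from promoters of their own rather than released from introns. Boxes C and D are short conserved sequences on which the proteins SNU13, NOP56, NOP58 and Fibrillarin assemble. Most box C/D snoRNAs guide 2′-O-methylation of rRNA, but U8 is known for its part in the maturation of 5.8S and 28S rRNA, and its 5′ end can pair with pre-rRNA. Mutations of SNORD118 cause a leukoencephalopathy with calcifications and cysts. U13 pairs with 18S rRNA near its 3′ end and is required for the acetylation of a cytosine there by NAT10.

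The U8 stretches on which the results turn are shown first. The snoRNA is 134 bases long in GENCODE release 44, on the minus strand of chr17:8173454-8173587 (hg38). Box C was searched as NTGATGA and box D as CTGA, in the sense of the RNA only, and these patterns do not overlap in U8. Box C was found once, at bases 54 to 60, and CTGA at bases 116 to 119 and 130 to 133. Among 314 GENCODE transcripts with a SNORD symbol, 73.9% hold NTGATGA and 96.8% hold CTGA, so these matches are the usual ones for the class. The first 3 lines give the same stretch, bases 42 to 71, because the peaks on the gene locus ended inside it. Capitals in the first and second line mark the bases within the peak, and in the third line box C. The fourth line gives bases 111 to 134, with the last CTGA in capitals, as the end of U8 that these peaks did not reach. The last line is the antisense probe that the study used to detect U8 on Northern blots, here wholly in capitals, which pairs with bases 24 to 53.
U8, WT peak on the locus: GCAGATTAGAACATGAtgattggagatgca
U8, C459A peak on the locus: GCAGATTAGAAcatgatgattggagatgca
U8, box C: gcagattagaacATGATGAttggagatgca
U8, 3′ end: acaccctgattgctcctgtCTGAt
U8, Northern probe: GTTCTAATCTGCCCTCCGGAGGAGGAACAG

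On its own transcript reference, U8 was enriched over its entire length with either protein. The SNORD118 peak covered bases 1 to 134 of 134 in the WT list and in the C459A list. Its log2 fold change of IP over SMInput was 3.24 in WT, a 9.46-fold enrichment with an adjusted p of 6.16e-08 from the authors' peak caller. In C459A it was 4.06, a 16.7-fold enrichment with an adjusted p of 3.54e-20 from the same caller. Each of these values joins both replicates, so no value per library and no error can be given for any peak, and the depth of the libraries is unknown. A peak over the entire snoRNA holds boxes C and D and the 5′ end alike, and does not place NOP2/NSUN1 on any part of U8. Such peaks were common among box C/D transcripts that GENCODE holds. In WT 28 of 45 were covered whole and 40 to at least 90%, and in C459A 28 and 48 of 58.

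On the U8 family entry the enrichment was the lowest of the 5 references in either list. The peak ran from base 1 to base 136 of the entry in WT and in C459A. In WT it was enriched 4.70-fold, or 2.23 on the log2 scale, at an adjusted p of 0.000198 from the authors' caller. In C459A it was enriched 6.90-fold, or 2.79 on that scale, at an adjusted p of 2.30e-13. The value of the entry minus that of the SNORD118 transcript in log2 units was -1.01 for WT and -1.27 for C459A. GENCODE annotates 22 further snoRNA genes with the symbol U8, whose sequences are between 62.8% and 89.7% identical to SNORD118. None of these 22 had a listed peak on its locus or on its transcript. The sources do not say how reads were divided between the entry and SNORD118, so the peaks on both are not separate observations.

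On the gene locus the listed U8 peak lay over the 5′ part of the snoRNA only. How reads were divided between the genome and the transcript reference is not stated, so the extent and the enrichment of a locus peak may depend on which reads were assigned to the genome. In WT it ran over chr17:8173531-8173590 on the minus strand, from 3 bases before the annotated start to base 57, and covered 42.5% of U8. In C459A it ran over chr17:8173536-8173589, from 2 bases before the start to base 52, and covered 38.8%. The WT peak ended within box C, of which it held 4 of 7 bases, and the C459A peak ended before that box and held none of it. The CTGA at base 130 lay 73 bases past the end of the WT peak and 78 bases past the end of the C459A peak. The site of the Northern probe lay inside the WT peak with all 30 bases and inside the C459A peak with 29. The forward qPCR primer of the study (bases 18 to 37) lay inside both peaks and the reverse primer (bases 99 to 118) outside both.

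The enrichment of the U8 locus peak in WT was 19.7-fold, 4.30 on the log2 scale, with 0.00155 as the adjusted p of the authors' caller. In C459A the enrichment was 17.2-fold, 4.10 on the log2 scale, with an adjusted p of 0.00468. It was the single U8 or U13 peak whose value was lower in C459A than in WT. SNORD118 lies, on the same strand, within an exon of TMEM107 that is annotated as UTR, and TMEM107 encodes a membrane protein of the primary cilium. Reads of that mRNA and of U8 cannot be told apart on the locus by position. RefSeq places the start of U8 1 base further upstream and gives it 137 bases (chr17:8173452-8173588), so of the bases before the GENCODE start 2 in WT and 1 in C459A also precede the RefSeq start.

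**Figure D1:**
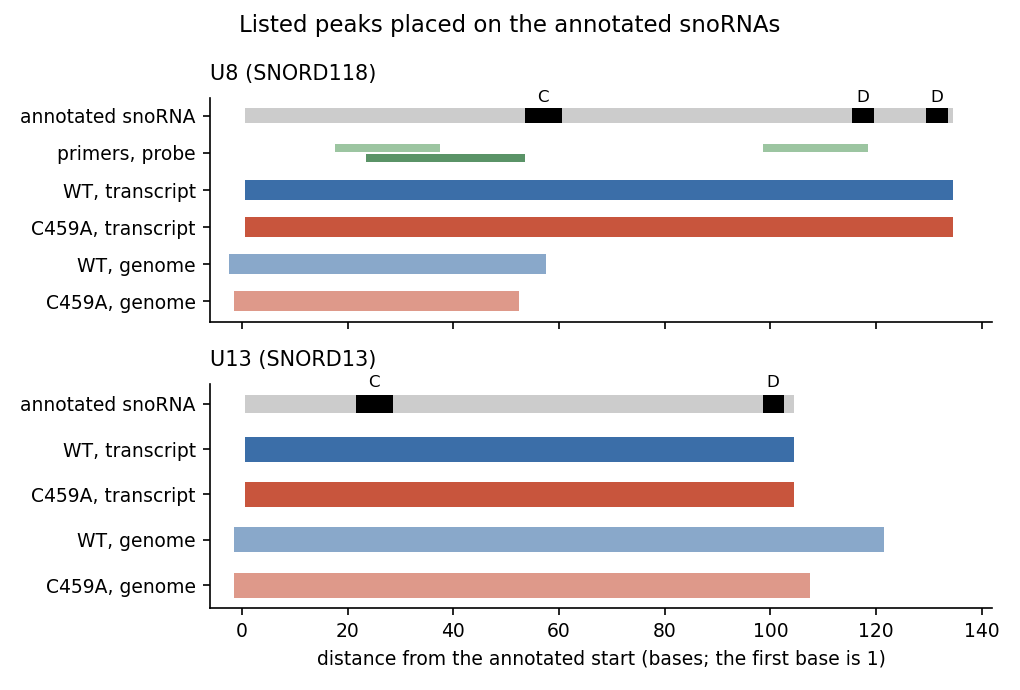
Listed peaks on U8 (top) and U13 (bottom) by distance from the annotated start, in bases; the gray bar is the annotated snoRNA with NTGATGA (C) and CTGA (D) in black, light green marks the qPCR primers, dark green the Northern probe, and blue and red the WT and C459A peaks on the transcript (full color) and on the genome (pale). The transcript peaks span each RNA, whereas the genome peak of U8 stops at base 57 in WT and base 52 in C459A, and that of U13 spans the RNA and runs past its end.

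On its transcript reference, U13 was also enriched from end to end with WT and with C459A. The SNORD13 peak covered bases 1 to 104 of 104 in each list. The log2 fold change was 3.26 in WT, a 9.61-fold enrichment with an adjusted p of 5.71e-07 from the authors' caller. In C459A it was 3.32, a 9.96-fold enrichment with an adjusted p of 1.35e-12. In WT, U13 and U8 thus had nearly equal values on their transcripts, 3.26 and 3.24, and in C459A the value of U8 was the higher, 4.06 against 3.32. Whether these values differ was not tested, since the replicates are joined.

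On the gene locus of SNORD13 (chr8:33513475-33513578, plus strand, GENCODE and RefSeq alike) the peaks were wider than the snoRNA. The WT peak ran over chr8:33513473-33513595, from 2 bases before the annotated start to 17 bases past the annotated end. The C459A peak ran over chr8:33513473-33513581, with the same start and 3 bases past the end. No other GENCODE gene overlaps SNORD13. Within U13 the box C pattern lies at bases 22 to 28 and box D at bases 99 to 102, and both were inside the locus peaks. The U13 locus was enriched 18.3-fold in WT, 4.20 on the log2 scale, at an adjusted p of 0.0153 from the authors' caller. In C459A it was enriched 25.3-fold, 4.66 on the log2 scale, at an adjusted p of 0.00163, the highest fold change among the U8 and U13 peaks. RefSeq holds 13 genes and pseudogenes with a SNORD13 symbol and a further letter, and none of them had a listed peak. The 4 of these that GENCODE includes are 87.7% to 95.2% identical to SNORD13, so that reads can be shared among them.

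**Figure D2:**
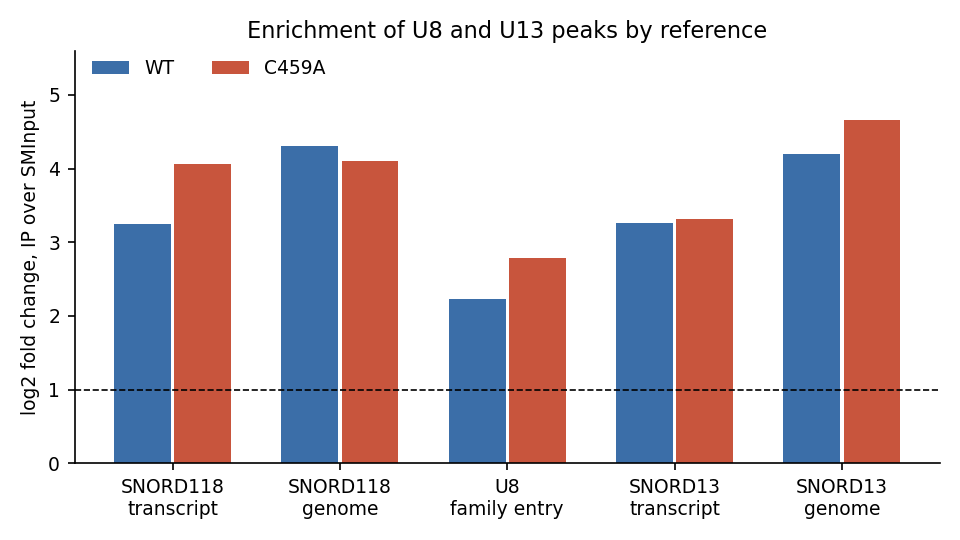
Log2 fold change of IP over SMInput (vertical axis) of each U8 and U13 peak in WT (blue) and C459A (red), by reference; each bar is the authors' single value for both replicates, so there are no error bars, and the dashed line is the fold change of 2 that the lists require. The bars run from 2.23 for the U8 family entry in WT to 4.66 for the SNORD13 locus in C459A.

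The locus and transcript values of the same snoRNA differed, and in U8 and U13 the locus had the higher fold change in both lists. The division of reads between them is not stated, and its part in these differences was not tested. For U8 the locus exceeded the transcript by 1.06 in WT and by 0.04 in C459A on the log2 scale. For U13 the excess was 0.93 in WT and 1.34 in C459A. In WT the same direction was found for 6 of the 8 box C/D snoRNAs with a peak on both references, U8 and U13 among the 6. The 8 differences lay between -2.02 and 4.03, with a median of 1.08. In C459A this direction was found for 5 of 8, again with U8 and U13 among them. The differences there lay between -1.63 and 1.58, with a median of 0.19. The adjusted p was larger on the locus than on the transcript for all 8 in each list, U8 and U13 included. A locus peak was listed for 16.7% of the 48 box C/D snoRNAs with a transcript peak in WT and for 13.1% of 61 in C459A.

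The extent of the locus peaks of U8 and U13 can be set beside that of other box C/D snoRNAs whose transcript GENCODE holds. In WT the 5 others were covered to between 45.9% and 100%, and in C459A the 5 others to between 52.8% and 100%. U8 was thus the least covered of these in each list. The nearest was SNORD15B in WT, where a peak from 3 bases before the start to base 67 covered 45.9%. In C459A, SNORD49A was covered from base 2 to base 39 of 71, also in its 5′ part. SNORD12C was covered from base 39 to base 85 of 89, so a partial peak was not always at the 5′ end. Peaks ran past the annotated 3′ end for 4 of the 5 others in WT and for 2 of 5 in C459A, by at most 13 and 11 bases, so the 17 bases of U13 in WT were the longest such extension. SNORD3A (U3) and SNORD47, each with a locus peak in both lists, were not part of this comparison, because neither the listed SNORD3A transcript nor the symbol SNORD47 was found in GENCODE release 44.

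**Figure D3:**
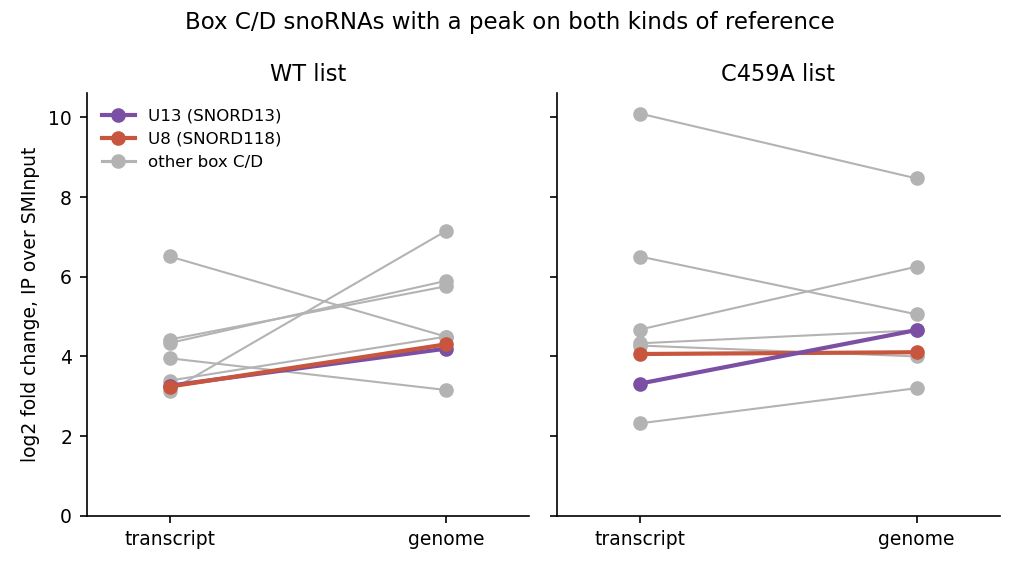
Log2 fold change of IP over SMInput on the transcript and on the genome for the 8 box C/D snoRNAs with a peak on both, in the WT list (left) and in the C459A list (right); U8 is red, U13 purple and the others gray. The U8 line rises by 1.06 in WT and is almost level in C459A (0.04), and the U13 line rises by 0.93 and 1.34.

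Between WT and C459A the enrichment of U8 and U13 differed by less than a doubling on each reference. The C459A value minus the WT value was 0.82 for the SNORD118 transcript, 0.55 for the U8 family entry, -0.20 for the SNORD118 locus, 0.05 for the SNORD13 transcript and 0.47 for the SNORD13 locus, all on the log2 scale. How the peak caller normalised the IP and SMInput libraries is not stated, and its part in these differences was not tested. The largest of these, on the SNORD118 transcript, is a ratio of 1.76. Over the 46 box C/D transcripts with 1 peak in each list, the same difference had a median of 0.11, with quartiles of -0.48 and 0.37, and was above 0 for 25 of them. Within these 46, the difference of U8 was the 7th highest and that of U13 the 25th. Over all 136 references with 1 peak in each list the median was 0.25. No test between WT and C459A was made, since the lists give a single value per peak for both replicates, and values below the thresholds are not in the lists.

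The adjusted p-values also differed between the lists. They were smaller in C459A on 4 of the 5 U8 and U13 references and larger on the SNORD118 locus. On the SNORD118 transcript the −log10 of the adjusted p rose by 12.2, the 4th largest rise among the 46 box C/D transcripts, and on the SNORD13 transcript by 5.63, the 12th largest. The same direction held for 34 of the 46 transcripts and for 106 of all 136 references, with a median rise of 1.11 over the latter. A smaller adjusted p can come with more reads as well as with more enrichment, and the read counts are not in the lists.

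**Figure D4:**
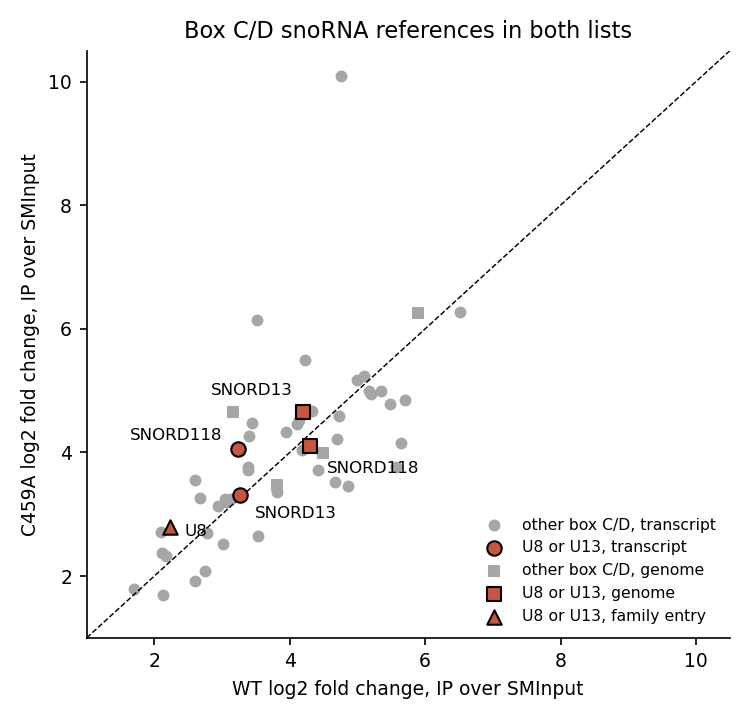
Log2 fold change of IP over SMInput in WT (horizontal axis) and C459A (vertical axis) for the 53 box C/D references with 1 peak in each list; circles are transcripts, squares the genome and the triangle the U8 family entry, with U8 and U13 in red and the line of equal values dashed. The red points lie among the gray ones, 4 above the line and the SNORD118 locus (4.30, 4.10) below it.

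The peaks of U8 and U13 had nearly the same outline in both lists. On the SNORD118 transcript, the SNORD13 transcript and the U8 family entry the bases covered were identical. The peaks on both transcripts span the whole reference in each list, so their identity says little about a shared outline. On the SNORD118 locus both lists shared 54 of 60 bases (90%), the WT peak being 5 bases longer inside U8 and 1 base longer upstream. On the SNORD13 locus they shared 109 of 123 bases (88.6%), and the difference was the longer 3′ extension in WT.

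Among all box C/D peaks, those of U8 and U13 ranked higher by adjusted p than by fold change when they lay on transcripts. In WT, the SNORD118 transcript ranked 7th of 58 by adjusted p and 41st by fold change, and the SNORD13 transcript 9th and 40th. In C459A they ranked 8th and 31st, and 12th and 49th, of 71. On the loci the order was turned in WT and in C459A: the SNORD118 locus ranked 23rd by fold change and 30th by adjusted p in WT, and the SNORD13 locus 18th and 40th in C459A. The median log2 fold change of the 5 U8 and U13 peaks was 3.26 in WT and 4.06 in C459A, beside 3.95 and 3.76 over all box C/D peaks and 3.44 and 3.63 over all peaks of each list. The U8 and U13 median fell on different RNAs, the SNORD13 transcript in WT and the SNORD118 transcript in C459A. The 58 and 71 box C/D peaks are also unlike sets, so these medians do not measure a change between the lists.

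SNORD118 and SNORD13 were both listed in each list, where 16.5% (WT) and 20.9% (C459A) of 297 SNORD symbols had a listed peak. Since the members were taken from these lists, their presence is a description and not a finding. The snoRNAs of pre-rRNA processing made up a group of 17 genes, with U3, U8, U13, U14, U22, U17 and RMRP, the RNA of RNase MRP, of which 12 had a listed peak in WT and 12 in C459A. In each list the 12 included 5 of 6 gene copies of U3 and 4 of 5 of U14, so they are not 12 separate RNAs. U8 and U13, chosen from these lists, were counted too. The U17 genes (SNORA73A and SNORA73B, of the H/ACA class) and RMRP had none. Of 18 kinds of small RNA that are known to have promoters of their own, including the spliceosomal snRNAs, U7, 7SK, RMRP, RPPH1, SCARNA2 and SCARNA17, the same 3 were listed in WT and in C459A, and these were U3, U8 and U13. Which of the others the libraries covered is not known from the lists. Whether 3 of 18 differs from the share of SNORD symbols with a listed peak was not tested. Vault RNAs were not among the kinds counted, so the 18 kinds are not all small RNAs with promoters of their own. The count of 3 holds for these 18 kinds only, and peaks on other such RNAs were not searched for here. The paper reports enrichment of a vault RNA with the mutant but not with WT.

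On their transcripts, U8 and U13 lay within the range of the other processing snoRNAs. The 5 transcripts of U3, which pairs with the 5′ETS, had log2 fold changes between 1.70 and 5.64 in WT and between 1.79 and 4.67 in C459A. The 4 of U14, which acts in 18S maturation, lay between 2.75 and 5.10 in WT and between 2.08 and 5.24 in C459A, and SNORD22 (U22) was at 2.10 and 2.72. The U3 value of 5.64 in WT came from SNORD3E, whose peak held only bases 1 to 32, at an adjusted p of 0.0401 from the authors' caller. SNORD3A, with a peak of 218 bases, was at 4.33 in WT. The pair of WT and C459A values most like that of SNORD118 belonged to SNORD14C, a copy of U14 (3.39 and 4.27, a distance of 0.26 in the plane of both values), followed by SNORD56 (0.33) and SNORD11B (0.37). For SNORD13 these were SNORD15B (0.15), SNORD16 (0.23) and SNORD100 (0.24). The likeness rests on 2 values for each RNA.

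The pre-rRNA peaks were also placed relative to the regions that U8 and U13 are known to contact, which for U8 are both ends of 28S. The 5′ end of 28S had a peak on 1 of the 28S references in each list, that of RNA45SN2. It covered bases 1 to 250 in WT, enriched by 1.67 on the log2 scale at an adjusted p of 0.000857 from the authors' caller, and bases 1 to 245 in C459A, enriched by 1.03 at 0.000327. Both of these log2 values are below those of every U8 peak. Among the peaks on 28S references, 13 in WT and 10 in C459A, a single peak in each list reached the last 1000 bases, a window set after these values were seen. In WT this peak lay at bases 4636 to 4983 of the RNA45SN3 copy, with a log2 fold change of 1.04 and an adjusted p of 0.0384 from the authors' caller. In C459A it lay at bases 4251 to 4572 of the RNA45SN1 copy, with 3.65 and 1.23e-21. This stretch holds the rRNA cytosine that the paper reports as methylated by the enzyme, where crosslinks were found with the mutant only. Any relation of this peak to U8 was not tested. None of the 31 WT and 26 C459A peaks on the 45S references reached the first 100 bases of 28S, although 7 and 4 of them overlapped ITS2, the spacer before it, with log2 fold changes from 1.07 to 4.22. In 18S, where U13 pairs near the 3′ end, 2 peaks of each list ran from the 5′ETS into the 5′ end, with log2 fold changes of 4.06 and 3.27 in WT and of 3.42 and 2.55 in C459A. No peak on a 45S reference lay over the 3′ end of 18S. Only the 45S references were searched for peaks over 18S. Copies of rRNA can share reads, and these peaks are wider than a pairing site.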

How the data were processed

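The WT and C459A peak lists were used as the authors deposited them. The authors trimmed reads with cutadapt, moved the UMI to the read name with fastp, mapped them to hg38 and repetitive element families, and called peaks with Peakachu on both replicates of IP and SMInput. No versions of these tools were stated. The deposited log2 values are fold changes of IP over SMInput, and the deposited −log10 adjusted p-values were turned back into p. A peak is listed at an adjusted p under 0.05 and 2-fold or higher enrichment. Read counts were not analysed here, so depth and counting error are unknown, and with the replicates pooled no test was made.

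Members are all rows annotated SNORD118, U8 or SNORD13, and the members and lists were chosen with earlier results of these data known. The most similar RNAs are the 3 box C/D transcripts at the smallest Euclidean distance in both log2 values. Locus peaks were placed on GENCODE release 44, where all 16 snoRNA peaks on chromosomes whose symbol it holds overlapped their gene. rRNA parts follow RefSeq GRCh38.p14. Overlap required 1 shared base. The U8 stretches were copied from the GENCODE transcript, the probe from the study's oligonucleotide list, and no U13 sequence is shown. Identity was computed by global alignment with edlib 1.3.9.post1, in python 3.11.15 with pandas 2.3.3. The placing of peaks was checked on made cases with known answers. Alternatives were stricter thresholds, larger overlaps and single kinds of reference.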

Additional observations from a re-analysis of the deposited data

How the results depend on the processing

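All 5 U8 and U13 peaks of each list kept a fold change of at least 4. At an adjusted p under 0.01 all 5 C459A peaks and 4 of the 5 WT peaks were kept, the WT peak on the SNORD13 locus being lost. All 5 overlapped their counterpart by at least 50% of both peaks, and 4 of 5 by at least 90%, the SNORD13 locus being the exception. The SNORD118 and SNORD13 transcript peaks spanned their whole reference in each list, so their overlap is complete. The kind of reference moved the medians. On loci alone the median log2 fold change was 4.25 in WT and 4.38 in C459A, and on transcripts alone 3.25 and 3.69. The median difference between C459A and WT was 0.47 on all references, 0.13 on loci and 0.44 on transcripts, and over box C/D references it was 0.12 in all and 0.11 on transcripts. Leaving out a replicate was not possible, and no paired analysis was possible because each value pools both replicates.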
